A study of Mus musculus with 4 samples.

Results

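Trp53, the mouse gene for p53, and 9 of its stress target genes were followed in neu-driven mammary tumours with and without a Cdc25a transgene. The targets were Mdm2, Ccng1, Btg2, Gadd45a, Plk2, Trp53inp1, Perp, Pmaip1 (also called Noxa) and Tnfrsf10b. Their probes were taken by name: every probe outside controls whose gene name on the array was one of these symbols or a former one. The search gave 15 probes for 9 genes. The tenth gene, Plk2 (formerly Snk), had 1 probe, which the array lists under the sequence name M96163. That probe was matched to Plk2 through the accessions of RefSeq and brought the total to 16 probes for 10 genes, of 41174 probes outside controls.

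Tumours of 2 mice carried MMTV-cdc25a together with MMTV-neu (Cdc25a;neu), and tumours of the other 2 mice carried MMTV-neu only (neu). All were mammary tumours of female FVB/N mice at 26 weeks, at the early stage T1. Every mouse carried neu, so neither group is free of an oncogene, and tumour-free gland was not among the samples used here. Both transgenes were driven by the mouse mammary tumour virus promoter (MMTV), which is active mainly in mammary epithelium. Each Cdc25a;neu tumour shared its 2-colour Agilent arrays with 1 neu tumour. The 2 arrays of a pair carried the same RNA extracts with Cy3 and Cy5 exchanged, which makes 4 arrays and 2 biological pairs. The labels name separate mice, and do not state whether any were littermates.

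p53 is a transcription factor that is held at a low level in unstressed cells, because the ubiquitin ligase Mdm2 marks it for destruction. DNA damage, oncogene activity and other stress release p53 from Mdm2, and p53 then switches on genes that stop the cell cycle, repair DNA or kill the cell. Mdm2 is itself a p53 target and closes a feedback loop. Cdc25a is a phosphatase that activates cyclin-dependent kinases and is degraded when the DNA damage checkpoint fires, and neu is Erbb2, a growth factor receptor with tyrosine kinase activity. Several p53 targets, among them Btg2, Gadd45a and Plk2, are also induced by growth factors within minutes to hours, so their messages do not report p53 alone.

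p53 recognises DNA through a pair of decamer half-sites. Promoter sequences were found in RefSeq (GRCm38.p6) for 6 of the 10 genes, and the window before each start, 250 bases long, was searched on both strands for the p53 half-site. Such a match lay in 8.36% of 32851 promoter windows of all genes, and in those of Trp53, Mdm2, Ccng1 and Gadd45a. These 4 stretches of promoter are shown because each carries a match to 1 half-site, and not to the pair that p53 recognises. Sequence outside the windows was not searched. The half-site is in capitals, and positions give its first base, counted back from the start.
Mdm2: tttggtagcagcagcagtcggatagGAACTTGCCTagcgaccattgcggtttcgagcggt
Ccng1: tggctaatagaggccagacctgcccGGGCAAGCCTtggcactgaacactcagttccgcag
Gadd45a: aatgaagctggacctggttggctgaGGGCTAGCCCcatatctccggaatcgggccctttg
Trp53: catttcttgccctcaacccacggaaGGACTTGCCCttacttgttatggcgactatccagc
The Mdm2 stretch is chr10:117710910-117710969 on the minus strand, with the half-site at position -186. The Ccng1 stretch is chr11:40755437-40755496 on the minus strand, with the half-site at -185. The Gadd45a stretch is chr6:67037413-67037472 on the minus strand, with the half-site at -40. The Trp53 stretch is chr11:69580259-69580318 on the plus strand, with the half-site at -75. Btg2 and Plk2 had no half-site in this window. The GC box GGGCGG, read on both strands, lay before the starts of Btg2, Gadd45a, Mdm2 and Plk2, and in 35.7% of all windows. The box TATAAA, also read on both strands, lay before the start of Trp53 and in 13.6% of all windows. In Trp53 the match was on the opposite strand, at the end of the window farthest from the start. None of the half-sites shown overlapped either box. A match describes the letters of these windows and is not a measurement of p53 binding.

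In the green channel 78.5% to 92.2% of an array's spots stood well above background, and in the red channel 82.7% to 87.9%. Ratios are given on the log2 scale as Cdc25a;neu over neu, after normexp background correction and loess. Arrays of the same pair correlated at 0.643 and 0.754 over 37033 probes, a description across probes, and arrays of different pairs at 0.196 to 0.364. Both Cdc25a probes had mean ratios near 0, 0.05 and 0.11, and the Erbb2 probe had 0.65 ± 0.28 (SD, n = 2 pairs), with a limma adjusted p of 0.50. Whether these probes read either transgene is not stated in the labels, so they are no check of the genotypes. Of 9 measured luminal epithelial markers, 8 were well above background on every array and channel, keratins 8 and 18 among them. Summed markers of several other cell types also differed between the tumours. Summed intensities of the 8 adipocyte markers were 2597 and 3147 in the Cdc25a;neu tumours of pairs 1 and 2, and 7318 and 17890 in the neu tumours. Those of 5 macrophage markers were 7004 and 34048 in the Cdc25a;neu tumours, and 9200 and 9230 in the neu tumours. Most of that sum was lysozyme (Lyz2), at a log2 intensity of 12.48 and 14.99 in the Cdc25a;neu tumours and 12.93 and 12.95 in the neu tumours, and its other probe had a mean ratio of 0.33. Those of 7 skeletal muscle markers were 1131 and 1266 in the Cdc25a;neu tumours, and 1200 and 4161 in the neu tumours. No marker was listed at 0. In whole tumours, fewer cells of a type and less RNA per cell cannot be told apart.

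None (0) of the 16 probes passed limma at an adjusted p under 0.05, and neither did any of the 37177 probes measured, which is 0.0% of the array. At an unadjusted p under 0.05 limma called 3 of the 16, against 9.43% of the array (3507 probes). Of these 3, 1 was higher in Cdc25a;neu tumours, against 3.74% of all probes, and 2 were lower, against 5.7%. The higher one was a Tnfrsf10b probe, and the lower ones were those of Trp53inp1 and Pmaip1. Ratios were above 0 on all 4 arrays for 3 probes, of Btg2 (2 probes) and Tnfrsf10b, against 14.2% of the array. They were below 0 on all 4 arrays for 4 probes, of Trp53inp1, Plk2, Pmaip1 and Btg2, against 12.6% of the array. Over 16 probes these counts lie within 2 probes of what the background shares give.

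**Figure D1:**
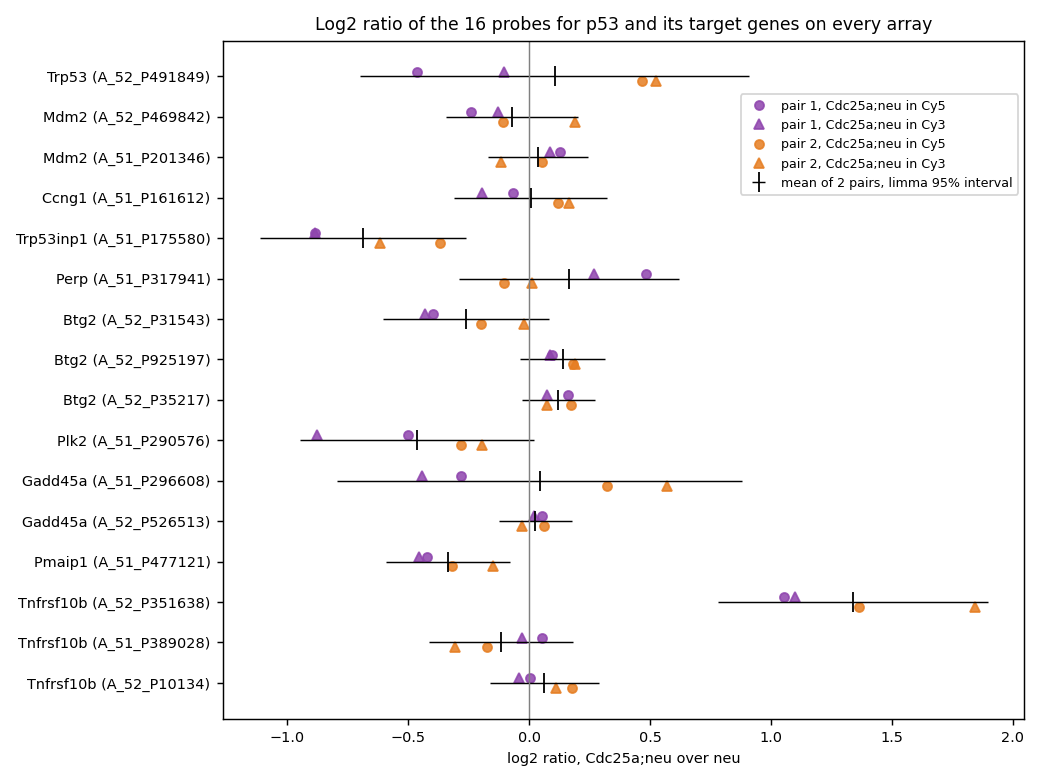
Log2 ratio, Cdc25a;neu over neu, of each of the 16 probes on each of the 4 arrays, with symbols for the dye and colours for the mouse pair; the black tick and line give the limma mean of 2 pairs and its 95% interval. The Tnfrsf10b probe A_52_P351638 lies at 1.05 to 1.84, Trp53inp1 lies at -0.88 to -0.37, and Trp53 and the Gadd45a probe A_51_P296608 lie below 0 in pair 1 and above 0 in pair 2.

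Levels are log2 intensities of a tumour, averaged over its 2 arrays after loess and scaling of the average signal across arrays. Intensity depends on each probe, so levels are compared between tumours and not between genes. Trp53 itself stood at 7.0 and 7.87 in the Cdc25a;neu tumours of pairs 1 and 2, and at 7.28 and 7.37 in the neu tumours. The Cdc25a;neu tumours were thus the lowest and the highest of the 4, and the groups overlapped. Its ratios were -0.46 and -0.10 on the arrays of pair 1, and 0.47 and 0.52 on those of pair 2. The mean over pairs was 0.11 ± 0.55 (SD, n = 2), with a 95% interval of -0.70 to 0.91 (limma adjusted p = 0.91). The interval spans differences of both signs, so these data give no direction for p53 mRNA.

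Mdm2, the ubiquitin ligase that limits p53, was read by 2 probes. The probe A_52_P469842 stood at 7.25 and 7.76 in Cdc25a;neu tumours and at 7.43 and 7.72 in neu tumours. The probe A_51_P201346 stood at 6.71 and 6.70 in Cdc25a;neu tumours and at 6.60 and 6.73 in neu tumours. In both probes the groups overlapped. Mean ratios were -0.07 ± 0.16 and 0.04 ± 0.10 (SD, n = 2 pairs), with limma adjusted p = 0.80 and 0.87. The probes lay on different sides of 0, and both signs turned under other settings, as given in the closing part. The 95% intervals ran from -0.34 to 0.20 and from -0.17 to 0.24.

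Ccng1 encodes cyclin G1, a p53 target that brings the phosphatase PP2A to Mdm2. It stood at 6.82 and 6.89 in Cdc25a;neu tumours and at 6.95 and 6.75 in neu tumours. Its ratios were -0.07 and -0.19 on the arrays of pair 1 and 0.12 and 0.17 on those of pair 2. The mean was 0.01 ± 0.19 (SD, n = 2 pairs; limma adjusted p = 0.99), the smallest in size of the 16 probes, and the tumours of both genotypes overlapped. Mdm2 and Ccng1 are among the most regular p53 targets in mouse tissues. Each had 1 half-site match in the window searched, as shown above. Such a match lay in 8.36% of all windows, and p53 binding was not measured.

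Gadd45a is a stress protein that binds PCNA and cyclin-dependent kinase 1 and takes part in growth arrest. Its probe A_51_P296608 stood at 8.17 and 9.24 in Cdc25a;neu tumours and at 8.53 and 8.80 in neu tumours. As with Trp53, the Cdc25a;neu tumours were the lowest and the highest of the 4. The ratios were -0.28 and -0.44 on the arrays of pair 1, and 0.32 and 0.57 on those of pair 2, with a mean of 0.04 ± 0.57 (SD, n = 2 pairs; limma adjusted p = 0.97). A second probe, A_52_P526513, is listed under a RIKEN clone and did not share this pattern: its ratios were between -0.03 and 0.06 on the 4 arrays. The 2 Gadd45a probes thus disagreed on the difference between tumours.

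Trp53, Ccng1 and Gadd45a were the 3 of 16 probes with one sign on both arrays of pair 1 and the other sign on both arrays of pair 2, against 13.5% of the array. Each was lower in Cdc25a;neu than in neu in pair 1 and higher in pair 2. The difference between the pairs, ignoring sign, had a median of 0.264 over the 16 probes and 0.0924 over all measured probes. The difference between the 2 arrays of one pair had medians of 0.0945 over the 16 probes and 0.112 over all measured probes. The dye swaps of the 16 probes as a set thus repeated as well as those of the array at large. In pairs 1 and 2 this difference was 0.360 and 0.056 for Trp53, and 0.128 and 0.045 for Ccng1. For Gadd45a A_51_P296608 it was 0.159 and 0.247. Gadd45a in both pairs, and Trp53 and Ccng1 in pair 1, thus repeated less closely than the array's median. The Cdc25a;neu tumour of pair 2 exceeded that of pair 1 by 0.87 for Trp53, by 1.08 for Gadd45a and by 0.07 for Ccng1. The neu tumours differed by 0.09 for Trp53, 0.27 for Gadd45a and -0.20 for Ccng1, pair 2 less pair 1. The median ratio of the 5 macrophage markers was -0.16 in pair 1 and 0.30 in pair 2. Of these, 3 (Cd68, Adgre1 and Lyz2) were below 0 on both arrays of pair 1 and above 0 on both of pair 2, and Csf1r had 0.01 and 0.20. Summed intensities of 6 fibroblast markers were 1700 and 7753 in the Cdc25a;neu tumours of pairs 1 and 2, and 2239 and 4108 in the neu tumours. The fibroblast list did not move as one: its median ratio was -0.37 in pair 1 and -0.01 in pair 2. Col1a1 had -0.36 and 1.60 and Col1a2 had -0.14 and 1.32, while 3 of the 6 (Dcn, Lum and Pdgfra) were below 0 on all 4 arrays. The part of these cells in the Trp53, Gadd45a and Ccng1 values was not tested.

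**Figure D2:**
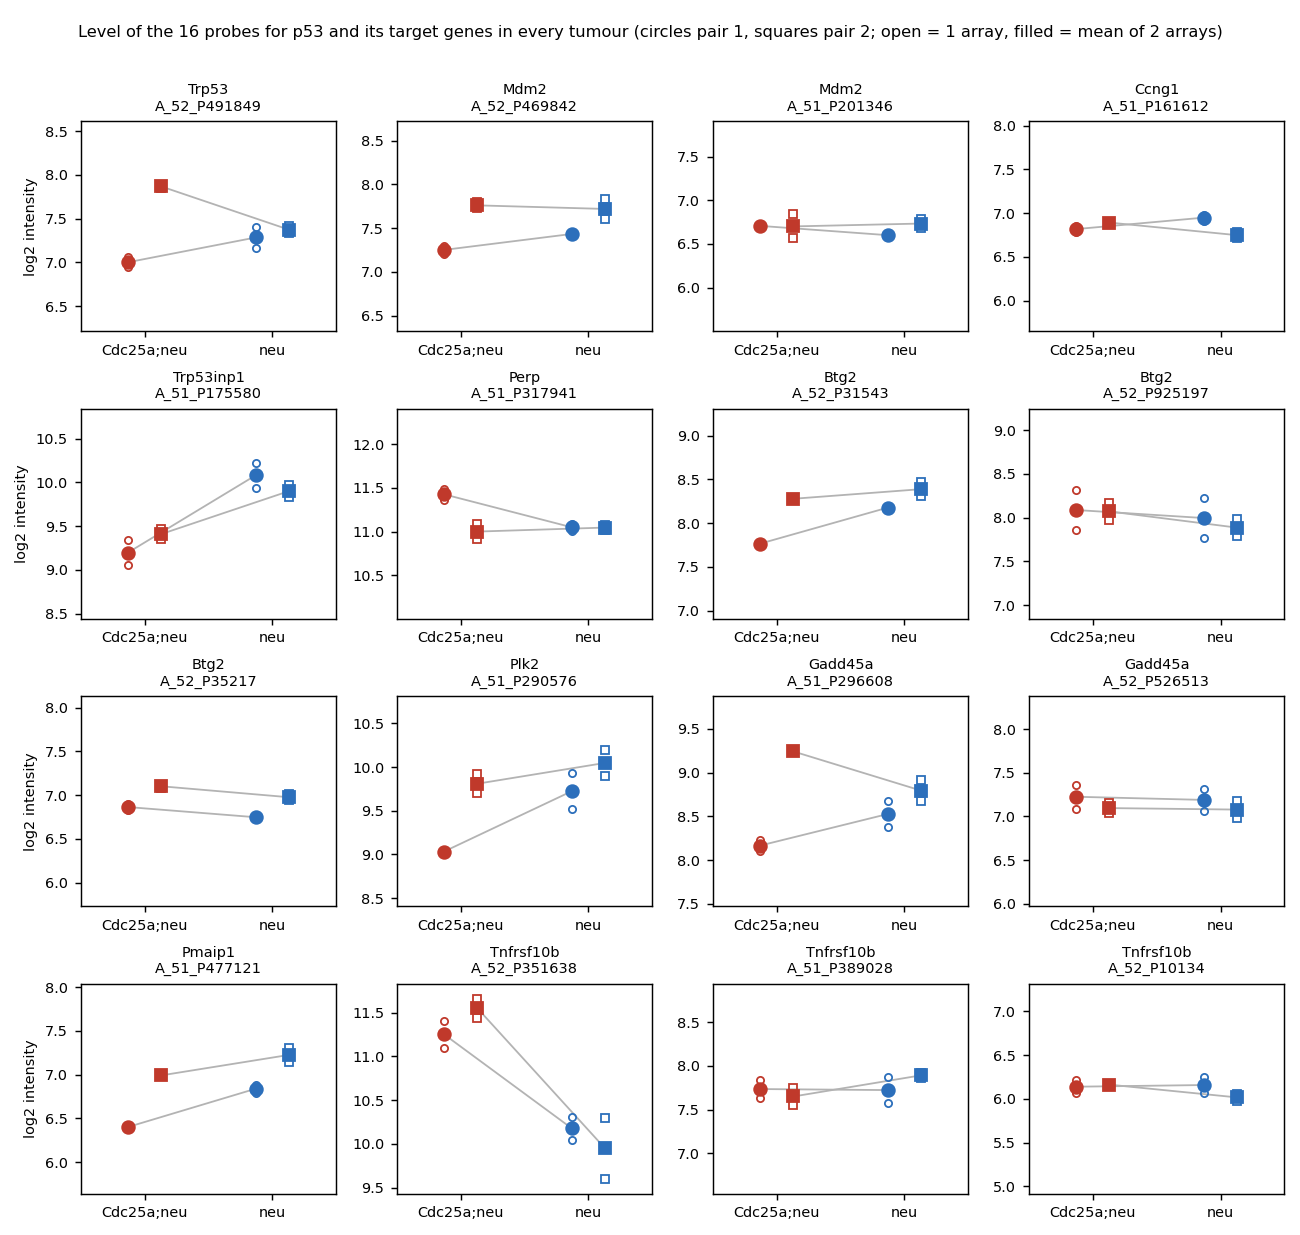
Log2 intensity of each of the 16 probes in the Cdc25a;neu (left, red) and neu (right, blue) tumours of pair 1 (circles) and pair 2 (squares); open symbols are single arrays, filled ones the mean of 2 arrays, and grey lines join the tumours that shared arrays. Every panel spans the same range. The lines of the pairs slope in opposite directions for Trp53 and Gadd45a A_51_P296608, and run the same way for Trp53inp1, Plk2, Pmaip1 and Tnfrsf10b A_52_P351638.

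**Figure D3:**
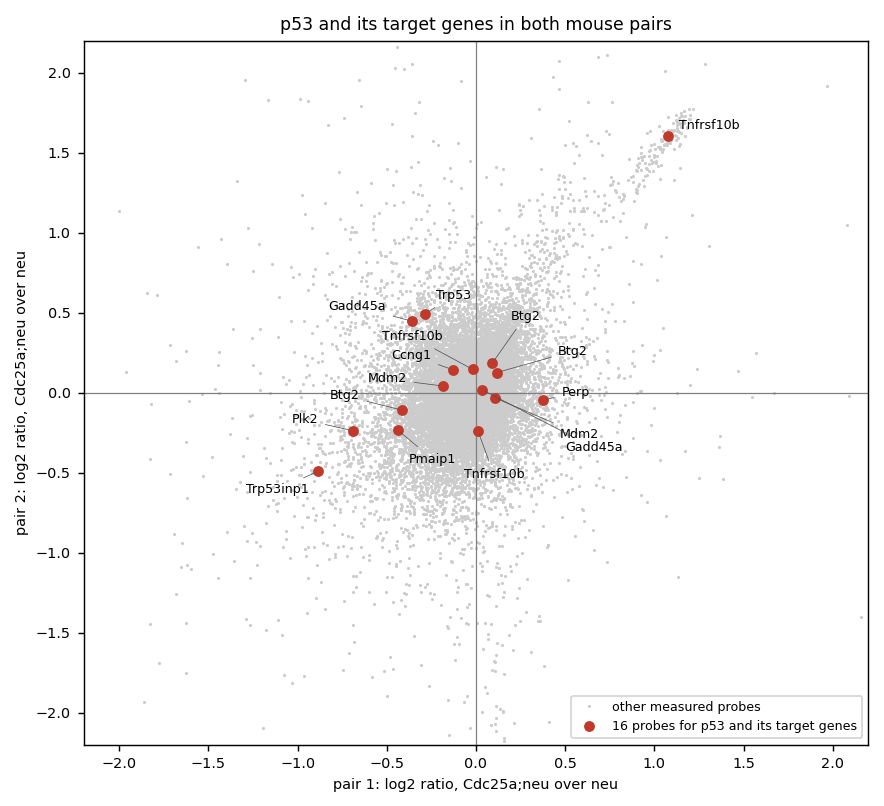
Mean log2 ratio, Cdc25a;neu over neu, in pair 1 (horizontal axis) and pair 2 (vertical axis) for the 16 probes (red, named) and all other measured probes (grey); 40 probes lie beyond the axes. Tnfrsf10b A_52_P351638 sits in a streak of grey probes at the upper right, and Trp53 and Gadd45a A_51_P296608 sit in the upper left, below 0 in pair 1 and above 0 in pair 2.

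Btg2, a BTG/Tob family protein that slows proliferation, was read by 3 probes that did not agree on a sign. The probe A_52_P31543 stood at 7.77 and 8.28 in Cdc25a;neu tumours and at 8.18 and 8.39 in neu tumours. Its ratios were -0.40 and -0.43 on the arrays of pair 1, and -0.20 and -0.02 on those of pair 2, with a mean of -0.26 ± 0.21 (SD, n = 2 pairs; limma adjusted p = 0.56). It was lower in Cdc25a;neu on each array, but the tumours overlapped. The probe A_52_P925197 lies against the same transcript and had 8.09 and 8.07 in Cdc25a;neu tumours and 8.0 and 7.89 in neu tumours. The third probe, A_52_P35217, is listed under a RIKEN clone and had 6.86 and 7.10 in Cdc25a;neu tumours and 6.75 and 6.98 in neu tumours. Their mean ratios were 0.14 ± 0.07 and 0.12 ± 0.01 (SD, n = 2 pairs; limma adjusted p = 0.56 and 0.55). For these 2 probes the ratios were above 0 on all 4 arrays, so Btg2 as a gene has no agreed direction here.

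Plk2 is a polo-like kinase that acts in centriole duplication and is induced by p53 and by serum. It stood at 9.03 and 9.81 in Cdc25a;neu tumours and at 9.72 and 10.05 in neu tumours. On the arrays of pair 1 the ratios were -0.50 and -0.88, and on those of pair 2 they were -0.28 and -0.20. Plk2 was thus lower in Cdc25a;neu on each array, but the Cdc25a;neu tumour of pair 2 lay above the neu tumour of pair 1. The mean was -0.46 ± 0.32 (SD, n = 2 pairs), with a 95% interval of -0.95 to 0.02 and a limma adjusted p of 0.53.

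Trp53inp1 is a stress protein that is induced by p53, binds kinases which phosphorylate p53 and takes part in autophagy and cell death. It stood at 9.20 and 9.41 in Cdc25a;neu tumours and at 10.08 and 9.90 in neu tumours. Both Cdc25a;neu tumours lay below both neu tumours, the only one of the 16 probes of which this is true, against 11.4% of the array. The ratios were -0.88 and -0.88 on the arrays of pair 1 and -0.37 and -0.62 on those of pair 2. The mean of -0.69 ± 0.28 (SD, n = 2 pairs) is a level 0.621 times that of neu, with a 95% interval of -1.11 to -0.26. The limma p was 0.02 before adjustment and 0.50 after it. Over 15 other settings the mean stayed between -0.75 and -0.63. Those that change only the filter, the variance model or the unit tested cannot move this mean. Its limma adjusted p was 0.003 with arrays centred on their medians, where all 16 probes had nearly the same standard error (0.153 to 0.157). It was 0.03 with the 4 arrays taken as units, which counts dye swaps as replicates. A random block for the pair left this p and the standard error nearly unchanged (0.0983 against 0.0984). In all other settings the adjusted p was above the threshold. With trend and robust eBayes the standard error was 0.290, against 0.127 as reported, and the limma p before adjustment was 0.07.

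The 5 measured genes on each side of Trp53inp1 on chromosome 4, in the order of GRCm38.p6, were looked at after its values were seen. Their median ratio was 0.00 in pair 1 and -0.15 in pair 2. Of these 10 genes 2 were below 0 on all 4 arrays, Ints8 with -0.20 in pair 1 and -0.89 in pair 2, and Esrp1 with -0.19 and -0.76. Trp53inp1 had its larger difference in pair 1, with -0.88 against -0.49 in pair 2. Of the 8 adipocyte markers 5 were below 0 on all 4 arrays, against 12.4% of all genes measured. Their median ratios were -0.56 and -1.31 in pairs 1 and 2, and 7 of 8 were well above background everywhere. The largest difference was that of Cfd, at -3.55 and -3.54. Lipe was above 0 on all 4 arrays, with 0.16 and 0.24, and Lep (0.01 and -0.15) and Pparg (0.04 and -0.13) were near 0. The 7 skeletal muscle markers had a median of 0.04 in pair 1 and -1.09 in pair 2. The part of these cells in the Trp53inp1, Plk2 and Pmaip1 values was not tested.

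Perp, a membrane protein of desmosomes and an effector of p53-dependent death, stood at 11.43 and 11 in Cdc25a;neu tumours and at 11.05 and 11.05 in neu tumours. The Cdc25a;neu tumour of pair 1 was the highest and that of pair 2 the lowest. Pair 1 gave ratios of 0.48 and 0.27, and pair 2 gave -0.10 and 0.01. The mean of 0.17 ± 0.30 (SD, n = 2 pairs; limma adjusted p = 0.73) therefore rests on 1 pair.

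Pmaip1 encodes Noxa, a BH3-only protein that opens the way to cell death by binding Mcl1. It stood at 6.40 and 6.99 in Cdc25a;neu tumours and at 6.84 and 7.23 in neu tumours. Pair 1 gave ratios of -0.42 and -0.45 on its arrays, and pair 2 gave -0.32 and -0.15. The signal was well above background on 3 of 4 arrays for Cdc25a;neu and on 4 of 4 for neu. Within each pair the Cdc25a;neu tumour was lower, but across pairs the groups overlapped. The mean was -0.34 ± 0.14 (SD, n = 2 pairs), with a 95% interval of -0.59 to -0.08. The limma p was 0.03 before adjustment and 0.51 after it. With trend and robust eBayes the limma p was 0.08 before adjustment. The size depended on the source of the values: it was -0.81 from the scanner's processed signals or its log ratios, and -0.89 in the authors' deposited table.

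Tnfrsf10b is the mouse death receptor for Trail and is induced by p53 in several tissues. Its 3 probes gave different answers. The probe A_52_P351638 stood at 11.25 and 11.55 in Cdc25a;neu tumours and at 10.18 and 9.95 in neu tumours. Both Cdc25a;neu tumours lay above both neu tumours, as they also did for Btg2 probe A_52_P925197, which makes 2 of 16 probes against 8.46% of the array. The arrays of pair 1 gave 1.05 and 1.10, and those of pair 2 gave 1.36 and 1.84. The mean of 1.34 ± 0.37 (SD, n = 2 pairs) is 2.53-fold, with a 95% interval of 0.78 to 1.90. Before adjustment the limma p was 0.006, and after it 0.45. This probe reads the RIKEN clone 4930556A08.

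The other 2 Tnfrsf10b probes are listed under the gene's RefSeq transcript. The probe A_51_P389028 stood at 7.74 and 7.65 in Cdc25a;neu tumours and at 7.72 and 7.89 in neu tumours, and its ratios averaged -0.11 ± 0.18 (SD, n = 2 pairs; limma adjusted p = 0.72). It was well above background in every channel. The probe A_52_P10134 stood at 6.14 and 6.16 in Cdc25a;neu tumours and at 6.16 and 6.02 in neu tumours, and its ratios averaged 0.06 ± 0.12 (SD, n = 2 pairs; limma adjusted p = 0.79). This probe was well above background on 2 of 4 arrays for Cdc25a;neu and on 1 of 4 for neu, so little can be read from it. The high ratio was thus not shared by A_51_P389028, and A_52_P10134 was too dim to tell.

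The ratios of A_52_P351638 were shared by many probes. On every array 94 other probes lay within 0.25 of it, of 37177 measured. Of these, 48 carry a current symbol, each of a different gene. The nearest were Gnmt, an enzyme that methylates glycine, with a largest gap of 0.033, then Spata19 with 0.044 and Kremen1, a Wnt co-receptor, with 0.054. For 10 of the 48 genes another probe was measured that lay outside this set. The median ratio of those other probes was 0.01, the range -0.20 to 0.05, and none (0) reached 1. The 94 probes were bright, with a median average log2 signal of 11.92 against 7.26 for the array. The limma adjusted p of A_52_P351638 was 6.35e-14 with arrays centred on their medians, where all 16 probes had nearly the same standard error. It was 0.02 with 4 arrays as units, which counts dye swaps as replicates, with or without the pair as a random block. The 10 closest measured genes on chromosome 14 had a median ratio of -0.08 in pair 1 and -0.03 in pair 2.

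**Figure D4:**
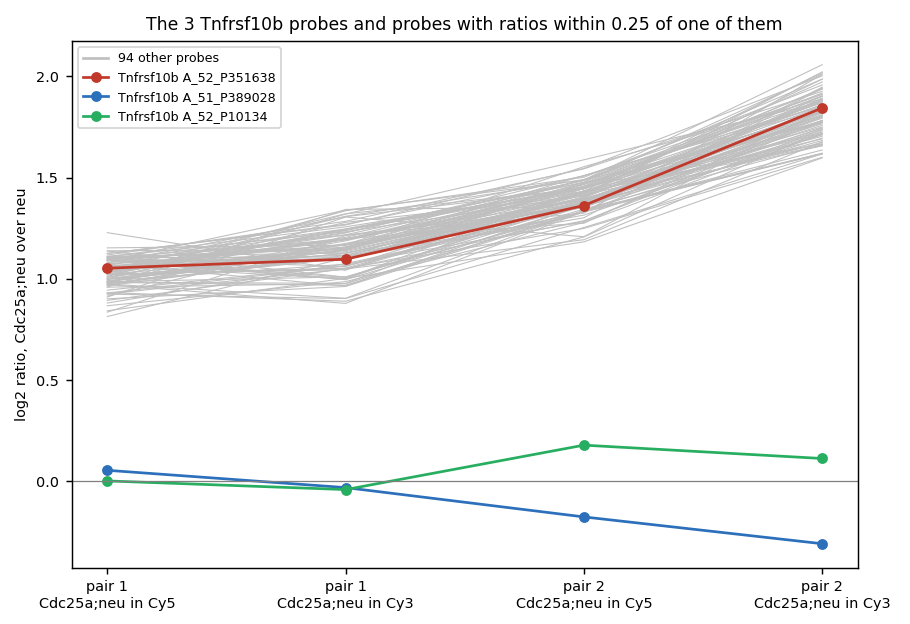
Log2 ratio, Cdc25a;neu over neu, of the 3 Tnfrsf10b probes on the 4 arrays (coloured lines and points), with the 94 other probes whose ratios lay within 0.25 of A_52_P351638 on every array (grey lines). A_52_P351638 runs at 1.05, 1.10, 1.36 and 1.84 inside the grey band, while A_51_P389028 and A_52_P10134 stay between -0.31 and 0.18.

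Other genes of the pathway were taken from lists of regulators and targets, with the brightest measured probe standing for a gene. Of 47 genes in 4 lists 43 were measured, and none (0) passed limma at an adjusted p under 0.05. Ratios were above 0 on all 4 arrays for 6 of them, against 14.7% of all genes measured, and below 0 for 4, against 12.4%. Their median was 0.00 in pair 1 and 0.02 in pair 2, beside 0.01 and 0.00 over all genes. In 7 of the 43 the pairs had opposite signs, against 13.5% of all genes.

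Of the p53 regulators 11 of 13 were measured. On all 4 arrays 2 were above 0 and 2 below 0, against 14.7% and 12.4% of all genes. Trp53bp1, an adaptor at DNA breaks, had a mean of -0.18 ± 0.05 (SD, n = 2 pairs), but its other probe had 0.20. Chek1, a checkpoint kinase that phosphorylates Cdc25a, had 0.11 ± 0.01 (SD, n = 2 pairs). Mdm4, the partner of Mdm2 that blocks p53, had -0.07 ± 0.06 (SD, n = 2 pairs), and its other probe had 0.09. The other Chek1 probe had 0.01, so for these 3 regulators a second probe did not repeat the value.

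All 8 arrest targets were measured. On all 4 arrays 3 were above 0 and 1 was below 0, against 14.7% and 12.4% of all genes. Cdkn1a, which encodes the kinase inhibitor p21 and is the classic p53 target, had 6.77 and 7.45 in Cdc25a;neu tumours and 6.54 and 6.78 in neu tumours. Its ratios were 0.23 in pair 1 and 0.66 in pair 2, with a mean of 0.45 ± 0.30 (SD, n = 2 pairs; limma adjusted p = 0.53). Its Cdc25a;neu tumour of pair 1 lay just below the neu tumour of pair 2. Gtse1, a G2 and S phase protein that restrains p53, had 0.22 ± 0.08, and Zmat3, an RNA-binding target, had 0.20 ± 0.15 (SD, n = 2 pairs each). The size of these values depended on their source. From the scanner's processed signals and from its log ratios Cdkn1a had 0.84, Gtse1 0.41 and 0.42, and Zmat3 0.32. In the authors' deposited table Cdkn1a had 0.82 and Gtse1 0.34. With arrays centred on their medians Cdkn1a had 0.54 and a limma adjusted p of 0.02, and it did not pass in any other setting.

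Of 12 apoptosis targets 11 were measured, with 1 above 0 and 1 below 0 on all 4 arrays, against 14.7% and 12.4% of all genes. Bbc3, which encodes the BH3-only protein Puma, had 0.15 ± 0.19, and the death receptor Fas had -0.13 ± 0.09 (SD, n = 2 pairs each). Of 14 repair and metabolism targets 13 were measured, and none (0) had the same sign on all 4 arrays, against 14.7% above and 12.4% below over all genes. Among the death genes, Fas and Pmaip1 were below 0 on each array, and Bbc3 and the Tnfrsf10b probe A_52_P351638 were above 0. The other Tnfrsf10b probes, Perp and the other measured apoptosis targets did not keep the same sign on all 4 arrays.

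Relatives of the 10 genes were also listed, and all 11 were measured. On all 4 arrays 1 was above 0 and 3 were below 0, against 14.7% and 12.4% of all genes. Btg1, which shares the antiproliferative BTG domain with Btg2, had -0.77 in pair 1 and -0.50 in pair 2, and its other probe had a mean of -0.52. Trp53inp2, the relative of Trp53inp1 that acts in autophagy, had -0.35 in pair 1 and -0.75 in pair 2. Their means were -0.63 ± 0.19 and -0.55 ± 0.28 (SD, n = 2 pairs; limma adjusted p = 0.47 and 0.51). Plk1, the mitotic relative of Plk2, had 0.37 ± 0.18 (SD, n = 2 pairs; limma adjusted p = 0.51), opposite in sign to Plk2. Btg1 passed limma with arrays centred on their medians (adjusted p = 0.01) and with the 4 arrays as units (0.02, with or without the random block), and Trp53inp2 in the first of these (0.04).

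The relatives of Gadd45a were named after their values were seen. Gadd45b had -1.22 in pair 1 and 0.93 in pair 2, and its second probe had a mean of 0.14. Gadd45g had -0.56 in pair 1 and 0.48 in pair 2. Both thus had the signs of the Gadd45a probe A_51_P296608 in each pair, with larger or similar sizes. The other Gadd45a probe, A_52_P526513, did not share these signs, with 0.04 in pair 1 and 0.02 in pair 2. The means of Gadd45b and Gadd45g were -0.14 ± 1.52 and -0.04 ± 0.73 (SD, n = 2 pairs; limma adjusted p = 0.96 and 0.98).

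Immediate early genes, which growth factors and tissue handling switch on, were listed because Btg2, Plk2 and Gadd45a share this behaviour. All 20 were measured, with 1 above 0 and 4 below 0 on all 4 arrays, and 6 with opposite signs in the pairs, against 14.7%, 12.4% and 13.5% of all genes. Their median was -0.05 in pair 1 and 0.03 in pair 2. Jun had -0.97 in pair 1 and -0.41 in pair 2, Atf3, a stress transcription factor, had -0.68 and -0.18, and Zfp36, which destabilises messages, had -0.17 and -0.35. Their limma adjusted p values were 0.52, 0.55 and 0.52. The Atf3 mean of -0.43 was -0.78 from the scanner's processed signals and -0.70 in the authors' deposited table. Jun passed with arrays centred on their medians (-0.61, limma adjusted p = 0.006). The part of such genes in the Btg2, Plk2 and Gadd45a values was not tested.

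**Figure D5:**
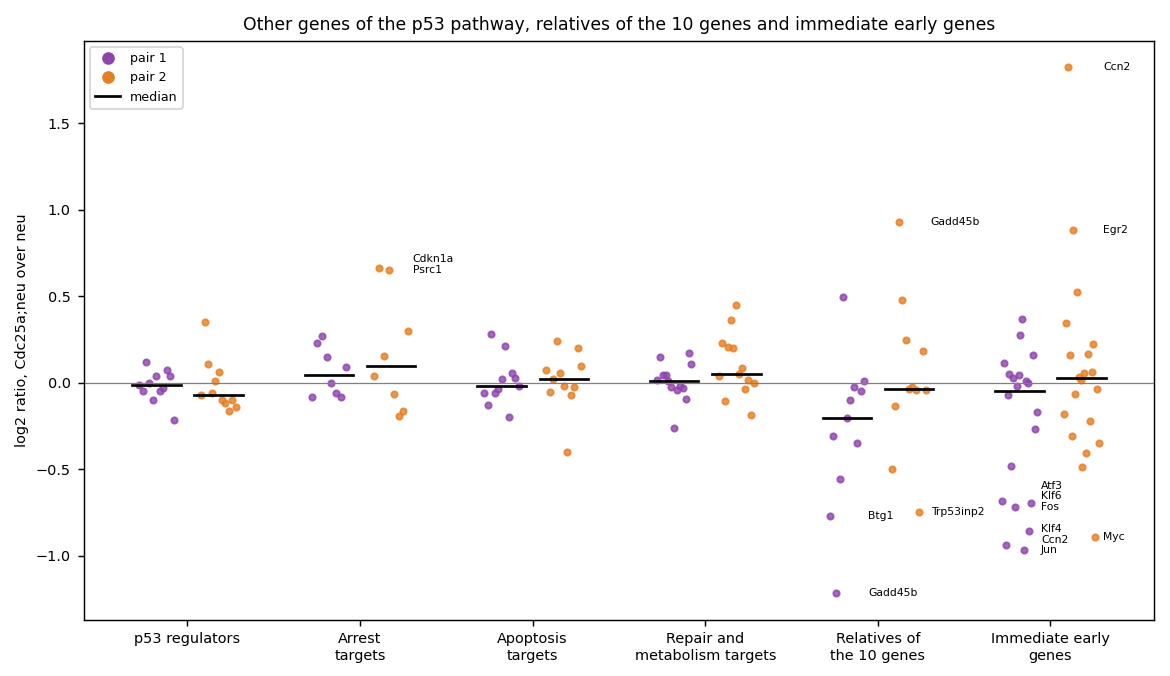
Mean log2 ratio, Cdc25a;neu over neu, in pair 1 (purple) and pair 2 (orange) of the genes in 4 lists of the p53 pathway, of relatives of the 10 genes and of immediate early genes; each point is 1 gene, black lines are medians, and genes at 0.6 or more in size are named beside their column. The 4 pathway medians lie between -0.07 and 0.10, and Gadd45b lies at -1.22 in pair 1 and at 0.93 in pair 2.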

How the data were processed

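Gene expression was measured on 4 dual-colour arrays from 2 pairs of tumours. Spot intensities of the green and red channels, local background, processed signals and a log10 ratio of red over green come from the deposited scanner files, per the file headers. The authors' deposited value table holds natural log ratios, a scale found by its slope of 2.27 to 2.29 against the scanner's log10 ratio, where 2.30 is the factor between the scales. How it was normalized is not given in those sources. The submitters' processing notes name Agilent Feature Extraction 7.2, and the file headers name version 7.5.1.

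Intensities were corrected by normexp (offset 50) and by loess within arrays, with control spots at weight 0, and spots flagged as outliers were dropped. Ratios were turned to Cdc25a;neu over neu by the dyes in the labels, spots of a probe averaged, and the dye swaps of a pair averaged into 1 replicate. A probe was kept when 2 or more arrays had it well above background in 1 channel or both (37177 of 41174 probes), and all 16 probes of the 10 genes were among them. limma 3.58.1 in R 4.3.3 tested the mean of 2 pairs against 0 (two-sided, moderated by eBayes), with p-values adjusted by Benjamini-Hochberg over all kept probes. The code was tested on simulated data, with 100 differences of 1 and 100 of 2. At the spread estimated for each probe from these arrays, none (0) passed the adjusted threshold. With an equal spread for all probes all of them passed, with 13 false calls. The number that passed thus depended on the spread assumed, and a lack of calls does not show equal levels. An exact sign-flip test of 2 pairs cannot go below p = 0.5, and none is given. The p-values and intervals cover no mice beyond these 2 pairs. Moderation draws each probe's spread towards that of all kept probes, so they do not rest on its own 2 pairs alone. For Trp53inp1 the standard error was 0.127, beside an SD of 0.28 between pairs. No slide held more than 1 array, which leaves no test of slide as a batch. The number of arrays limits the precision.

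Probes were named through RefSeq accessions (11450 and 6192), symbols (2296) and synonyms (938), and 20298 kept the array's name. The files name no genome build. The 10 genes, the lists and the cell type markers were chosen with earlier results of these data known. From each list the text names up to 3 genes with the largest mean among those of one sign on all 4 arrays, with Cdkn1a and Mdm4 always, and for a probe of the 10 genes at 1 or more in size, the probes within 0.25 of it. Alternatives were tried for filter, background, normalization, source of values, variance model, replication and single arrays.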

Additional observations from a re-analysis of the deposited data

How the results depend on the processing

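The mean ratios of 11 of the 16 probes kept their sign in all alternatives run, among them those of Trp53, Trp53inp1, Plk2, Pmaip1 and Tnfrsf10b A_52_P351638. Alternatives that change only the filter, the variance model or the unit tested leave a probe's mean as it is, so they could not turn a sign. Sign changes came in values near 0. With arrays centred on their medians, Mdm2 A_52_P469842 had 0.0101, Tnfrsf10b A_52_P10134 -0.0834, Mdm4 0.00786 and Gadd45g 0.0350. Ccng1 had -0.00805 from scanner processed signals, -0.00603 from the scanner log ratio and -0.0200 in the authors' deposited table. Leaving out single arrays gave -0.0254 to 0.0384 for Ccng1, -0.146 to 0.00466 for Mdm2 A_52_P469842, -0.00531 to 0.0790 for Mdm2 A_51_P201346, -0.0186 to 0.105 for Gadd45a A_51_P296608 and -0.110 to 0.0348 for Gadd45g. With median centring Trp53 had 0.19, the Btg2 probes A_52_P31543 and A_52_P925197 -0.17 and 0.25, Tnfrsf10b A_51_P389028 -0.05, Fas -0.05, Trp53bp1 -0.09, Chek1 0.19 and Zfp36 -0.16. Trp53 had 0.02 to 0.20 when single arrays were left out. In the authors' table Btg2 A_52_P925197 had 0.22 and A_52_P35217 0.20, Fas had -0.24 and Gadd45b -0.34.

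Counts of limma calls at an adjusted p under 0.05 were 0 in 13 of 16 settings, the reported one included. They were 1110 probes with median centring, 935 with 4 arrays as units and 944 with a random block for the pair. Each of these held 2 of the 16 probes, Trp53inp1 and Tnfrsf10b A_52_P351638. With 4 arrays as units, dye swaps of the same extracts count as replicates, and the random block left the standard errors of the 16 probes nearly unchanged. With median centring those standard errors ran only from 0.153 to 0.157, against 0.045 to 0.249 in the reported setting. Cdkn1a had 0.153 there too. The p-values with median centring thus hardly used a probe's own spread. At an unadjusted p under 0.05 the array gave 191 probes with trend and robust eBayes, 6554 with 4 arrays as units, 6616 with the random block, and 1148 with separate-channel levels and no replicate block, which ignores the hybridised pair. The 16 probes gave 1, 7 and 7 in the first 3 of these, and 2 to 5 when single arrays were left out, 5 of them without the Cy3 array of pair 2. Probes below 0 on all arrays numbered 1 with median centring. Probes above 0 on all arrays used numbered 3 to 5 when single arrays were left out. No share of the whole array is given beside these sign counts or beside the counts without single arrays. They therefore describe the 16 probes only. The cause of the differences between settings was not tested.

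With median centring the list medians were 0.00264 for p53 regulators, 0.149 for arrest targets, 0.0785 for repair targets and -0.0440 for immediate early genes, against -0.0415, 0.0878, 0.0330 and -0.0997 as reported. Arrest targets had 0.196 with the stricter filter, which keeps fewer genes, 0.160 from scanner processed signals and 0.152 from the scanner log ratio. Repair targets had 0.0738 and 0.0659 in the last 2 of these. Apoptosis targets had 0.0424 in the authors' table, against 0.0110. Without single arrays the arrest median was 0.112 to 0.138 and the repair median 0.00200 to 0.0718. The stricter filter left out Pmaip1 and Tnfrsf10b A_52_P10134. The number of pairs limits the precision.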
